A study of Mus musculus with 12 samples.

Results

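Cytosolic ribosomal protein genes were followed in mouse vascular smooth muscle cells in primary culture, before and after growth factor treatment (PDGF-BB) and in cells of 2 genotype labels. Members were the rows annotated as protein-coding whose symbol is Rpl or Rps with a number, Rplp0 to Rplp2, or Rpsa. This gave 83 of the 55487 genes in the table, 32 of the small subunit and 51 of the large subunit, by a rule that uses symbols and gene type and no measured value. Poly(A) RNA was sequenced from 12 libraries in 4 groups of 3, namely wild-type cells and cells labelled Tigar knockout, each either untreated or given PDGF-BB at 40 µg/L for 6 h. All cells were of passages 4 to 6, from mice aged 4 to 6 weeks, grown in medium with serum. Nothing in the labels tells whether a group's 3 libraries were separate animals or repeats of 1 culture, so every p-value reflects only how these libraries vary. Tigar RNA did not mark the genotype label: it was at 6.91 to 8.61 CPM (counts per 1000000 reads) in wild-type untreated libraries and at 10.0 to 12.2 CPM in labelled knockout untreated ones. Its reads are not split by exon in the table, so whether the deleted part was read was not tested, and the group is called labelled knockout throughout.

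Each cytosolic ribosome is built from a small subunit, which reads the mRNA, and a large subunit, which joins the amino acids. Their proteins are made in nearly equal numbers, and the mRNAs of most of them start with a C followed by a run of pyrimidines, the 5′ terminal oligopyrimidine or TOP motif. Growth factors are known to raise the output of TOP mRNAs mainly through translation, under mTOR and the RNA-binding protein LARP1, whereas the factors that assemble ribosomes are transcriptional targets of MYC. Only RNA levels were measured here.

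Start-site sequences of 8 members are shown because the results turn on them or on their paralogs: 5 that were called higher with PDGF-BB in wild-type cells (Rpl4, Rps6, Rpsa, Rpl12, Rpl7l1) and 3 that were not (Rpl10, Rpl22, Rpl22l1). Each is 60 bases before and 20 bases from the RefSeq start (build GRCm38.p6), 5′ to 3′ on the gene's strand. Capitals mark the longest unbroken run of C and T or, in Rpl12, the first of the runs that tie for longest.
Rpl4 (chr9:64173327-64173406, plus strand): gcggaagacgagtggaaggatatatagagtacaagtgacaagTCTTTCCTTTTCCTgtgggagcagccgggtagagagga
Rps6 (chr4:86857348-86857427, minus strand): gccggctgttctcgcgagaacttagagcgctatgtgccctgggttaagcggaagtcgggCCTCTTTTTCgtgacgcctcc
Rpsa (chr9:120127706-120127785, plus strand): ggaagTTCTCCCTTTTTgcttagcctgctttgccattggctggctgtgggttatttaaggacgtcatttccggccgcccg
Rpl12 (chr2:32961652-32961731, plus strand): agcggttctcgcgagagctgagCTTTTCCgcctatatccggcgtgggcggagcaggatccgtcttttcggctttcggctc
Rpl7l1 (chr17:46782637-46782716, minus strand): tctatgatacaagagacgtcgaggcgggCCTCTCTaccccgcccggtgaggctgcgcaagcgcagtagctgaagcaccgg
Rpl10 (chrX:74270756-74270835, plus strand): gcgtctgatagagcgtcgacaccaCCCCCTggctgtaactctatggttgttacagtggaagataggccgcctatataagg
Rpl22 (chr4:152325666-152325745, plus strand): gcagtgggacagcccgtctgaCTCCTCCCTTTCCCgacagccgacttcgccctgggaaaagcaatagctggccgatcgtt
Rpl22l1 (chr3:28805448-28805527, plus strand): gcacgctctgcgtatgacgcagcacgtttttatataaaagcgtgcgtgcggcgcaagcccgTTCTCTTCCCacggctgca

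The runs were 14 bases long in Rpl4 and Rpl22, 12 in Rpsa, 10 in Rps6 and Rpl22l1, 7 in Rpl12 and Rpl7l1, and 6 in Rpl10. Counted from the RefSeq start, they began at −1 in Rps6 and at 2 in Rpl22l1. The other capitalised runs ended before the start. They began at −18 in Rpl4, −32 in Rpl7l1, −36 in Rpl10, −38 in Rpl12, −39 in Rpl22 and −55 in Rpsa. Rpl12 had another run of 7 bases, TCTTTTC, which began at 2. A run on either side of the start is thus not by itself a TOP motif. Start sites of some further members were read but are not printed. There the longest run began at 2 in Rpl18, −2 in Rps27, −3 in Rps10, 3 in Rpl13a and −22 in Rps27l. Runs away from the start are therefore not shown to be typical of members. RefSeq windows were matched for 63 of the 83 members. A run of at least 8 C or T bases lay within 50 bases either side of the start in 52 of 63 members (82.5%), against 39.3% of 27025 genes, and the median longest run was 10 bases against 7. In windows of 300 bases (250 before the start, 50 after), CTTTCC on the gene's strand was in 39.7% of members and 16.0% of genes. CCGGAAG, the core bound by ETS-family factors, was in 41.3% of members and 9.93% of genes, counting both strands. CACGTG, the E-box bound by MYC, was in 9.52% of members and 8.09% of genes (both strands), and TATAAA was in 9.52% and 9.77% (gene's strand). Motif searches could overlap one another, and a match is a description of the letters, not of binding.

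Of the 83 members, 79 reached at least 1 CPM in at least 3 libraries and were tested: all 32 of the small subunit and 47 of the 51 of the large subunit. The other 4 were Rpl10l, Rpl3l and Rpl39l, tissue-restricted paralogs, and Rpl24. Rpl10l had 0 of 206600962 reads, which allows up to 0.0145 CPM over all libraries for counting error. Rpl39l had 6 reads in all, Rpl3l 12 and Rpl24 68. Rpl24 is a ribosomal protein of every cell type, and 47.0% of its exonic bases are shared on the same strand with the gene model Gm28037, which is listed at 0. Reads of such genes can be lost at counting.

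Ribosomal protein genes have many processed copies, and 317 rows of the table carried a member's name with a pseudogene suffix. Rps10 was at 1.55 to 6.44 CPM while Rps10-ps2 was at 70.5 to 137 CPM, and Rpl3-ps1 was at 86.3 to 146 CPM beside Rpl3 at 429 to 640 CPM. Levels of members with close copies are therefore uncertain. On the same strand, 15 members shared more than 5% of their exonic bases with another gene model, and 15 did so on the other strand. The share on the other strand was 66.2% in Rpl35 and 59.7% in Rpl23a, which was at 1.01 to 7.17 CPM. Strand settings of the counting are not given in the sources used here.

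Levels covered a wide range. Leaving out library 1 of wild-type with PDGF-BB, which stands apart as described further on, the median over the 79 members was 200 CPM, the highest was 1045 CPM (Rplp0), and the top 10 members held 32.7% of the summed level. The range had 56 members above 100 CPM and 4 below 10 CPM. Per kilobase of exon, over all libraries, the highest were Rplp1 at 1175 CPM per kb, Rplp0 at 797 and Rpl10 at 673. Rplp0 is the platform of the ribosomal stalk and carries the acidic proteins Rplp1 and Rplp2, and Rplp2 was at 174 CPM per kb. These values use the deposited exon lengths, which are 799 bases in Rpl10, 964 in Rplp2 and 499 in Rplp1. All annotated exonic bases of these genes come to 2053, 2072 and 499. Levels per kilobase and their ranking thus depend on the length used. Rpl10, the large-subunit protein added late in assembly, is on the X chromosome. The lowest per kilobase were Rpl10l, Rpl39l and Rpl3l, followed by Rpl24.

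Parent genes exceeded their paralogs, with 1 exception. Rpl22 was at 147 to 289 CPM and Rpl22l1 at 5.42 to 16.3 CPM. Rps27 and Rps27l were closer, at 64.1 to 156 and 61.5 to 126 CPM, and they were at 64.1 and 64.2 CPM in library 3 of wild-type with PDGF-BB. Rpl7 was at 431 to 674 CPM and Rpl7l1, a relative of Rpl7 found in assembling large subunits, at 54.6 to 125 CPM. Rps4l, annotated as a pseudogene and so no member, was at 4.06 to 11.8 CPM beside Rps4x at 425 to 795 CPM.

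Members took 1.67%, 1.88% and 1.72% of reads in the wild-type untreated libraries and 3.14%, 1.94% and 1.73% with PDGF-BB. In labelled knockout cells they took 1.68%, 1.87% and 1.87% untreated and 1.84%, 1.87% and 1.88% with PDGF-BB. The first wild-type library with PDGF-BB was thus the single high one, and the other 11 lay between 1.67% and 1.94%. Summed levels were 17592 ± 1111 CPM (SD, n = 3) in wild-type untreated, 18079 ± 1080 in labelled knockout untreated and 18631 ± 201 in labelled knockout with PDGF-BB. In wild-type with PDGF-BB the sum was 22714 ± 7597 CPM (SD, n = 3), or 18368 CPM as the mean of the other 2 libraries.

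**Figure D1:**
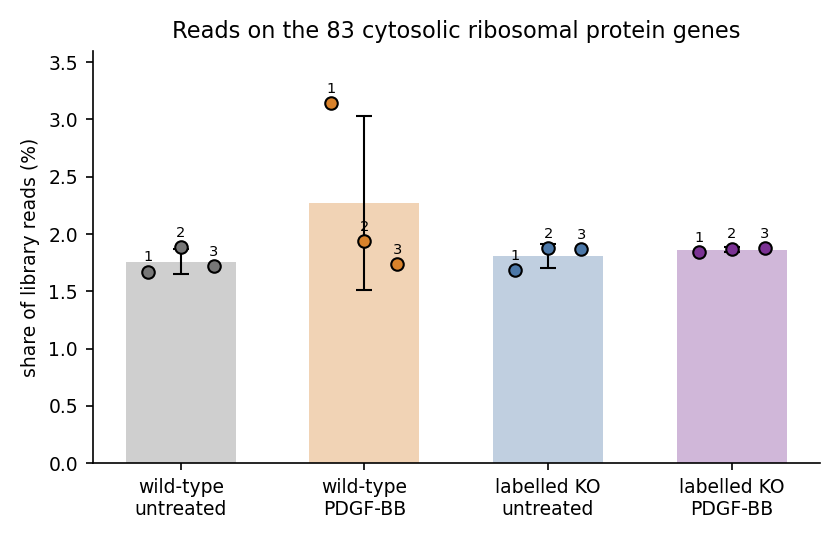
Share of each library's reads on the 83 ribosomal protein genes (y axis, percent) by group (x axis). Points are libraries numbered by replicate, bars are means and error bars are SD over 3 libraries. Library 1 of wild-type with PDGF-BB is at 3.14%, and the other 11 lie between 1.67% and 1.94%.

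In that library all 79 members were above both other libraries of its group. The ratio to the mean of those 2 ran from 1.20 (Rps27a) to 2.41 (Rpl35), with a median of 1.77. Short genes in general were high there, and members are short, with a median exon length of 816 bases (371 in Rpl38 to 5179 in Rps15a) against 2864 for all genes tested. The median log2 difference from the other 2 libraries was 0.82 for members and 0.05 for all genes. Within classes of exon length members were still higher than genes at large: 0.97 against 0.31 up to 500 bases, 0.82 against 0.47 from over 750 to 1000, and 0.73 against 0.25 from over 1500 to 2500. After the trend with exon length was removed, the members' median was 0.45. Mitochondrial ribosomal protein genes (0.59), elongation and other TOP genes (0.53) and smooth muscle markers (0.40) were also high in this library, and ribosome biogenesis genes were at 0.26. Results are therefore given with and without this library, and the origin of its difference was not tested.

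**Figure D2:**
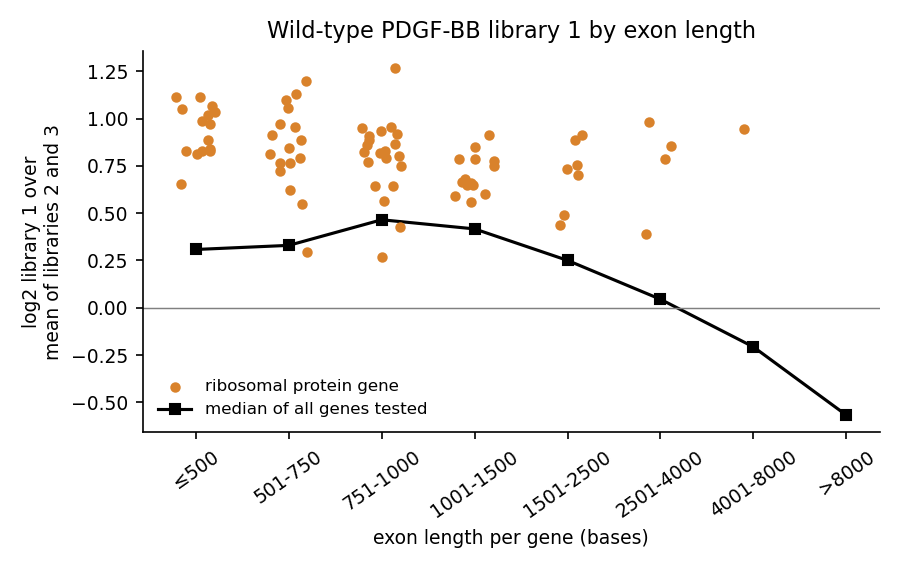
Log2 level in library 1 of wild-type with PDGF-BB over the mean of libraries 2 and 3 (y axis) by class of exon length in bases (x axis). Orange points are the 79 ribosomal protein genes, as log2 of the CPM ratio without a pseudocount. Black squares are medians of all genes tested, on log2(CPM + 1) from the mean of the other libraries' logs. The scales of points and squares thus differ for low genes. Most members lie above the median of their length class, with an overall median of 0.82 against 0.05 for all genes.

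Markers of smooth muscle and of other cell types differed between the genotype labels. Smooth muscle markers were abundant in all groups, with 11 of 12 tested and summed levels of 3927 to 8020 CPM. In labelled knockout cells, 6 of these 11 were called higher untreated (median log2 difference 0.38) and 9 with PDGF-BB (0.61), and 0 lower. Of all genes, 9.15% were higher untreated and 10.6% with PDGF-BB. Without library 1 of wild-type with PDGF-BB, 7 and 11 were higher, against 13.3% and 11.9%. In untreated cells, endothelial markers summed to 143 to 156 CPM in wild-type and 678 to 778 CPM in labelled knockout libraries. Macrophage markers summed to 140 to 153 and 32.4 to 39.8 CPM. All 8 endothelial markers were called higher in labelled knockout cells and all 8 macrophage markers lower. Fibroblast markers summed to 1805 to 1899 and 4430 to 4823 CPM, but of 6 tested 2 were called higher and 1 lower, with a median log2 difference of −0.21. Col1a1, a collagen chain, was at 1.45 and Pi16 at 0.57, and the other 4 were negative. Schwann cell markers summed to 46.6 to 54.9 and 17.4 to 19.3 CPM, with 3 of 3 tested lower, and epithelial markers to 2.39 to 3.93 and 16.0 to 19.2 CPM, with 1 of 1 tested higher. None of the 8 endothelial or 8 macrophage markers was at 0 throughout. In bulk RNA, fewer cells of a type and less RNA per cell cannot be told apart, and the part of these markers in the genotype results was not tested.

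The PDGF-BB response was tested with limma-trend on log2(CPM + 1), with Benjamini-Hochberg adjustment over the 14202 genes tested and a two-sided threshold of 0.05. In wild-type cells, 19 of 79 members were called higher and 0 lower, where 25.0% of all genes were called higher and 34.4% lower. The members' median log2 change was 0.33 against −0.08 for all genes. At an unadjusted p under 0.05, 28 members were higher and 0 lower, and edgeR on recovered reads called 51 higher and 0 lower, against 30.4% and 28.9% of all genes. Without library 1 the counts were 16 higher and 3 lower, against 26.5% and 37.4% of all genes, and the median was 0.06 against −0.09. With the trend with exon length removed they were 46 and 1, against 32.2% and 31.1%, and with library 1 also left out 30 and 1, against 32.0% and 31.4%. TMM-style scaling gave 42 and 0, against 29.5% and 29.3%. The share of members called higher was thus near that of genes at large by limma-trend with all libraries, below it without library 1, and above it with edgeR, with TMM-style scaling and with the length trend removed. The members' median was 0.27 with the trend removed and 0.12 with library 1 also left out. Without library 1, the small subunit had 8 of 32 higher and 0 lower (median 0.07), and the large subunit 8 of 47 higher and 3 lower (median 0.05).

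Leaving out other libraries also moved the count. Members called higher numbered 7 without wild-type untreated library 1, against 21.9% of all genes, and 8 without wild-type untreated library 3, against 22.1%. They numbered 69 without library 3 of wild-type with PDGF-BB, against 27.4%. The first 2 counts are below the share of genes at large and the last is above it. Libraries of the 2 wild-type groups did not overlap for 20 members, all higher with PDGF-BB, where 25.9% of all genes did not overlap in that direction and 36.4% in the other.

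Rps27a encodes ubiquitin fused to a small-subunit protein (gene on chromosome 11, 29545846 to 29548109, minus strand). It was at 49.4, 62.9 and 47.8 CPM in the untreated wild-type libraries and 147, 105 and 139 CPM with PDGF-BB. The groups did not overlap, and the log2 change was 1.27 (SE 0.32, limma-trend adjusted p = 0.00388), or 1.17 without library 1. Untreated labelled knockout libraries were at 51.2, 54.1 and 144 CPM and treated ones at 95.1, 154 and 163 CPM. There 1 untreated library lay among the treated ones, so the groups overlapped. The log2 change was 0.85 (SE 0.32, adjusted p = 0.0452). That call was lost by edgeR, by the fit without a filter, and on leaving out any wild-type untreated library, labelled knockout untreated library 1 or 2, or labelled knockout PDGF-BB library 2 or 3. Its adjusted p ranged from 0.000498 to 0.202 over the alternatives.

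Rpl7l1 (chromosome 17, 46773907 to 46782672, minus strand) was called in both genotype labels. It was at 55.4, 60.7 and 60.1 CPM in untreated wild-type libraries and 125, 96.8 and 93.3 CPM with PDGF-BB. Labelled knockout libraries were at 54.7, 54.6 and 58.3 CPM untreated and 78.5, 75.2 and 74.2 CPM with PDGF-BB. All treated libraries were above all untreated ones, and all treated wild-type libraries were above all treated labelled knockout ones. The log2 change was 0.82 in wild-type (SE 0.09, adjusted p = 8.21e-06), or 0.69 without library 1. The labelled knockout value was 0.44 (SE 0.09, adjusted p = 0.00221). Both calls held under all 20 alternatives, 12 of which left out 1 library each.

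Rpl12, a protein of the stalk base, was at 228, 240 and 233 CPM untreated and 490, 296 and 272 CPM with PDGF-BB. Its log2 change was 0.54 (SE 0.16, adjusted p = 0.0113), or 0.28 without library 1. Its 2 other treated libraries still lay above every untreated one.

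Rpl8, which lies near the peptidyl transferase centre, was at 319, 367 and 346 CPM in untreated wild-type libraries and 759, 429 and 404 CPM with PDGF-BB. The log2 change was 0.56 (adjusted p = 0.0132), or 0.28 without library 1, and the call was lost without wild-type untreated library 1 (adjusted p = 0.0515, range 6.05e-05 to 0.0515). Rpsa, also known as the laminin receptor, was at 500, 549 and 529 CPM untreated and 1046, 642 and 600 CPM with PDGF-BB. Its log2 change was 0.49 (adjusted p = 0.0173), or 0.24 without library 1. It too was lost without wild-type untreated library 1 (adjusted p = 0.0586, range 0.000866 to 0.0586). For both, library 1 was far above the other treated libraries, and those still lay above every untreated one.

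Rps6, the classical substrate of S6 kinase, was at 171, 185 and 177 CPM untreated and 340, 205 and 199 CPM with PDGF-BB. Rpl4, a protein lining the exit tunnel, was at 723, 780 and 746 CPM untreated and 1190, 885 and 809 CPM with PDGF-BB. For both, the treated libraries were above the untreated ones, with log2 changes of 0.44 and 0.34, or 0.19 and 0.18 without library 1. Both calls were lost without wild-type untreated library 1 or 3, and without a filter on low values. Other called members included Rpl18 (0.52), Rps13 (0.44), Rpl27 (0.45), Rpl14 (0.43), Rps2 (0.40), Rpl30 (0.46), Rplp1 (0.44) and Rpl5 (0.36). Of these, Rpl30, Rplp1 and Rpl5 were lost without library 1, and the other 5 had log2 changes of 0.16 to 0.24 there. All 8 of these calls were lost without wild-type untreated library 3, and all but Rpl27 without wild-type untreated library 1 and without a filter. Of the 12 fits that left out 1 library, the call was lost in 11 for Rplp1, in 10 each for Rpl30 and Rpl5 and in 6 for Rps13. It was lost in 2 each for Rpl18, Rpl14 and Rps2 and in 1 for Rpl27.

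A pair of low-count members were called with large changes. Rps10, which sits at the mRNA entry, was at 2.40, 2.24 and 1.55 CPM in untreated wild-type libraries and 6.44, 4.59 and 4.23 CPM with PDGF-BB. Labelled knockout libraries were at 2.03, 1.94 and 1.95 CPM untreated and 3.18, 3.02 and 2.75 CPM with PDGF-BB. The log2 changes were 0.98 (SE 0.15, adjusted p = 9.26e-05) and 0.42 (SE 0.15, adjusted p = 0.0376). The labelled knockout call was lost on leaving out any of the 6 labelled knockout libraries and without a filter, with adjusted p from 0.00629 to 0.898 over all alternatives. With the values of its pseudogene rows added they were 0.31 (adjusted p = 0.127) and 0.03 (adjusted p = 0.898), and neither was called. Rpl13a, of the large subunit, was at 4.22, 6.16 and 3.93 CPM untreated and 11.8, 8.77 and 7.23 CPM with PDGF-BB in wild-type cells, a log2 change of 0.83 (SE 0.16, adjusted p = 0.000756). It shares 35.4% of its exonic bases with other gene models on its strand.

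A few members were lower with PDGF-BB in some of the fits. Rpl3, a large-subunit protein near the peptidyl transferase centre, was at 543, 578 and 580 CPM in untreated wild-type libraries and 640, 490 and 461 CPM with PDGF-BB. Those labelled knockout were at 535, 543 and 517 CPM untreated and 429, 439 and 439 CPM with PDGF-BB. All 3 treated labelled knockout libraries were below all untreated ones, and in wild-type cells only library 1 lay above. The log2 change in labelled knockout cells was −0.29 (SE 0.10, adjusted p = 0.0307). It missed the threshold with TMM-style scaling (−0.23, adjusted p = 0.0600), with edgeR, without a filter, and on leaving out any labelled knockout library, with adjusted p from 1.37e-05 to 0.0872 over all alternatives. In wild-type cells it was −0.11 (adjusted p = 0.350), and −0.25 without library 1 (adjusted p = 0.000141, range 0.000141 to 0.891).

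Rpl10 showed the same layout. It was at 500, 523 and 499 CPM untreated and 724, 467 and 459 CPM with PDGF-BB in wild-type cells. In labelled knockout cells it was at 554, 590 and 588 CPM untreated and 512, 536 and 499 CPM with PDGF-BB. Apart from library 1, treated libraries were below untreated ones in both genotype labels. Without that library the log2 changes were −0.13 (adjusted p = 0.0225, range 0.0225 to 0.857) and −0.16 (adjusted p = 0.00316, range 0.00316 to 0.533). With it they were 0.08 and −0.16, and neither was called. Rpl37a, a small zinc-binding protein of the large subunit, was at 175, 220 and 167 CPM untreated and 362, 180 and 135 CPM with PDGF-BB. Its log2 change was 0.15, and −0.25 without library 1 (adjusted p = 0.0450, range 0.0450 to 0.845).

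**Figure D3:**
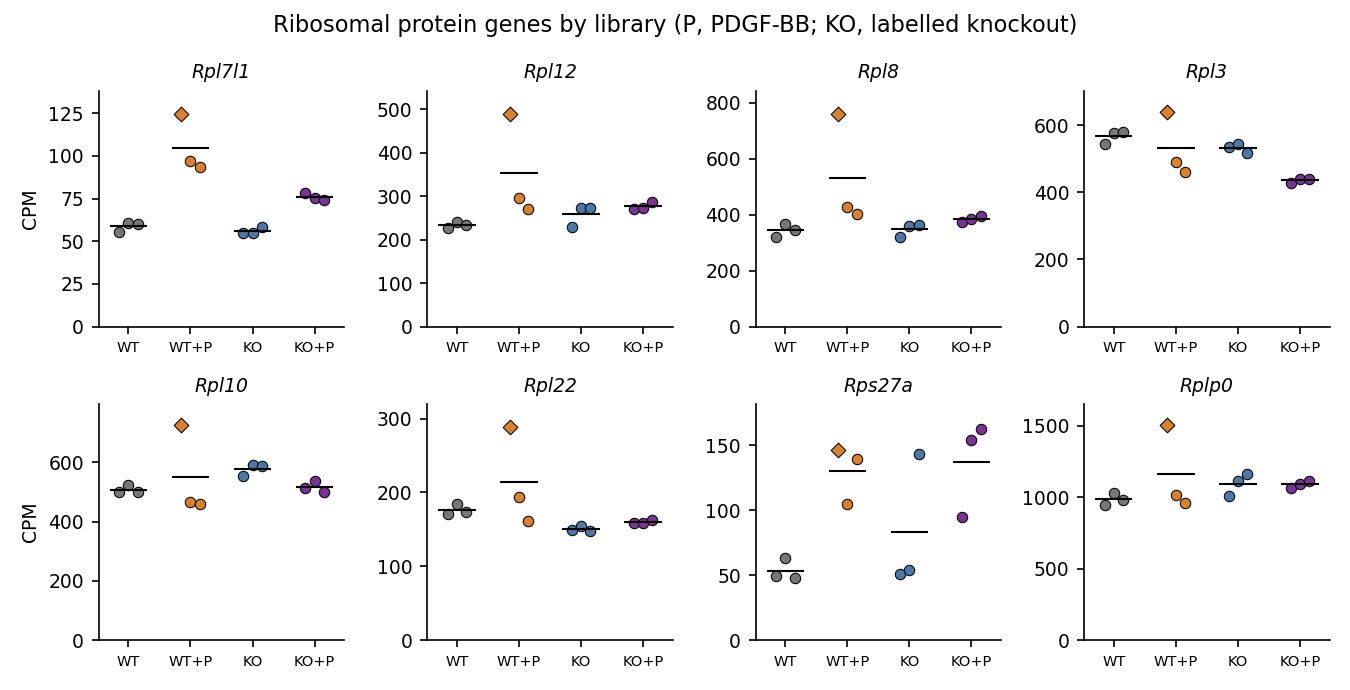
CPM of 8 ribosomal protein genes (y axes, from 0) in the 4 groups (x axes). Points are libraries, lines are means of 3 libraries, and the diamond is library 1 of wild-type with PDGF-BB. Rpl7l1 is at 74.2 to 125 CPM in all treated libraries and at 54.6 to 60.7 CPM in all untreated ones, whereas Rpl3 and Rpl10 in wild-type cells lie above the untreated libraries only in library 1.

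In labelled knockout cells, 3 members were called higher with PDGF-BB (Rps27a, Rpl7l1, Rps10) and 1 lower (Rpl3), where 17.6% of all genes were called higher and 24.8% lower. The median log2 change was 0.08 against −0.07 for all genes. With TMM-style scaling the counts were 3 and 0, against 21.1% and 21.6% of all genes, and with edgeR 2 and 0, against 20.8% and 21.7%. Without library 1 of wild-type with PDGF-BB, which enters this comparison only through the shared estimate of spread, they were 11 and 2, against 24.4% and 32.7% of all genes. The log2 changes were then the same and their errors smaller. With the length trend removed the counts were 7 and 1, against 24.8% and 24.0%, and with library 1 also left out 30 and 2, against 29.3% and 28.1%. With library 1 left out and the trend kept, the added members included Rps12 (0.30), Rplp2 (0.26), Rps13 (0.20), Rpsa (0.17) and Rpl8 (0.15) among those higher. Rpl10 was added among those lower. Libraries did not overlap for 26 members that were higher and 5 that were lower, where 27.3% and 35.9% of all genes did not overlap. The coefficient of variation over libraries was small in this group, with a median over members of 2.96% in the treated libraries and 6.68% in the untreated ones.

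Genes that build ribosomes had larger changes than their proteins. All 32 ribosome biogenesis genes were called higher with PDGF-BB in both genotype labels, with a median log2 change of 1.21 in wild-type (1.16 without library 1) and 0.81 in labelled knockout cells. For this and the lists that follow, 25.0% of all genes were higher and 34.4% lower in wild-type cells (26.5% and 37.4% without library 1). In labelled knockout cells the shares were 17.6% and 24.8% (24.4% and 32.7% without it). Nop56, a core protein of box C/D snoRNPs, changed by 1.92 (SE 0.12, adjusted p = 4.49e-08) and 1.31 (SE 0.12, adjusted p = 3.51e-06). Rrp12, an export factor for pre-ribosomes, changed by 1.84 and 1.34. Of 27 initiation factors, 23 were higher and 1 lower in wild-type (22 and 1 without library 1) and 14 and 1 in labelled knockout cells (20 and 1 without it). Eif4e, the cap-binding protein, changed by 1.28 and 0.74, and Eif6, which binds the large subunit, by 1.35 and 0.98.

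Of 77 mitochondrial ribosomal protein genes tested, 45 were higher and 0 lower in wild-type cells, and 39 and 5 without library 1, with medians of 0.42 and 0.23. In labelled knockout cells the counts were 15 and 1, or 34 and 2 without library 1 of wild-type with PDGF-BB, with a median of 0.18 in both fits. Mrpl12 changed by 1.03 in wild-type and 0.69 in labelled knockout cells. Among 16 elongation factors and other TOP genes, 6 were higher and 2 lower in wild-type, and 5 and 5 without library 1. In labelled knockout cells the counts were 1 and 3, and 5 and 4 without library 1. Eif4b, a TOP mRNA for an initiation cofactor, fell by 0.72 and 0.52 on the log2 scale, and Eef2, the translocase, fell by 0.40 in labelled knockout cells. Without library 1 the medians of this list (−0.02) and of the cytosolic ribosomal proteins (0.06) were thus the lowest of the 5.

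Genes that share the ribosome with the members but fall outside the symbol rule gave 3 of 4 called higher in wild-type cells, with and without library 1. Rack1, a scaffold on the small subunit, changed by 0.34, or 0.16 without library 1. Among 19 regulators of TOP mRNAs and ribosome genes, 6 were higher and 2 lower in wild-type and 4 and 2 in labelled knockout cells, with Myc at 1.36 and 1.03. Without library 1 the counts were 9 and 3 in wild-type and 8 and 3 in labelled knockout cells.

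**Figure D4:**
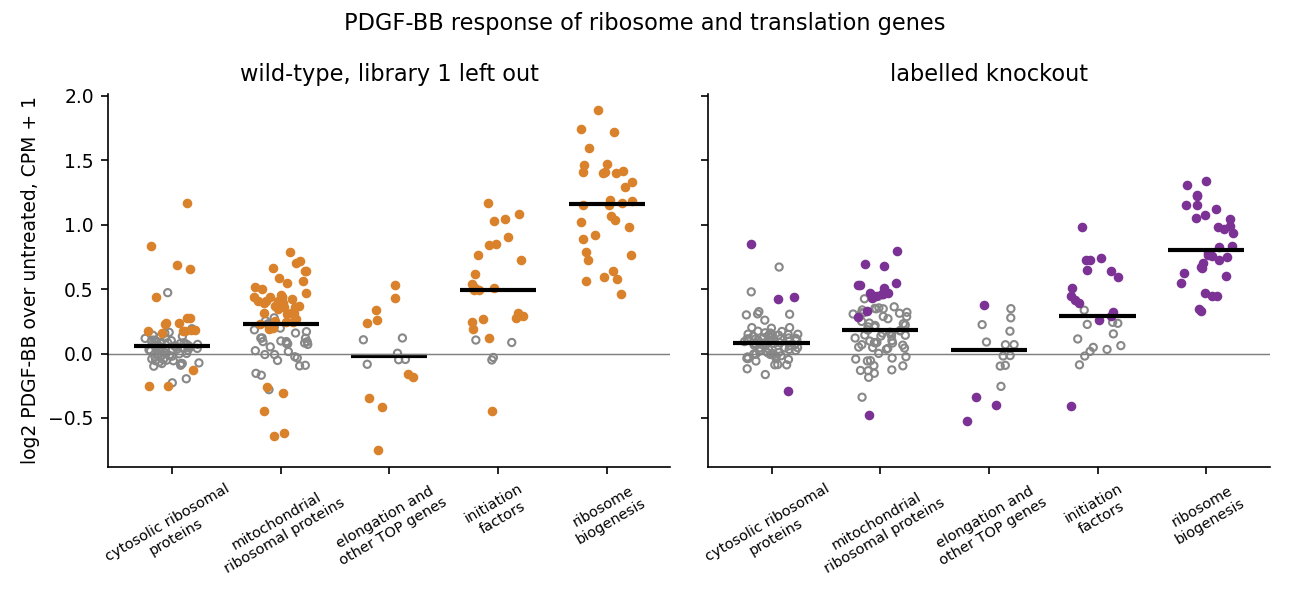
Log2 change with PDGF-BB on the CPM + 1 scale (y axis) by gene list (x axis), in wild-type cells without library 1 (left) and in labelled knockout cells (right). Points are genes, filled where called by limma-trend, and lines are list medians. Calls are from the fit without library 1 on the left and from that with all libraries on the right. Filled points are therefore not comparable between panels. The fit without library 1 called 11 cytosolic ribosomal proteins higher and 2 lower in labelled knockout cells. Cytosolic ribosomal proteins have medians of 0.06 and 0.08, and ribosome biogenesis genes 1.16 and 0.81.

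Between genotype labels in untreated cells, 0 members were called in either direction by limma-trend, where 9.15% of all genes were called higher in labelled knockout and 24.8% lower. At an unadjusted p under 0.05, 0 were higher and 0 lower. Libraries did not overlap for 3 members that were higher and 2 that were lower, where 14.1% and 40.5% of all genes did not. By comparison, edgeR called 0 at its adjusted p, against 13.7% of all genes higher and 14.0% lower, and 5 higher and 0 lower unadjusted. The median log2 difference was 0.01 against −0.13 for all genes. TMM-style scaling moved the all-gene median to −0.01 and the background to 13.6% higher and 14.3% lower, and gave a members' median of 0.14. Relative to the all-gene median, members stood 0.14 higher in the first scaling and 0.15 higher in the second.

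Without library 1 of wild-type with PDGF-BB, which is in neither of these groups, the smaller spread gave 6 higher and 1 lower, against 13.3% and 36.9% of all genes. With the length trend removed 7 were higher and 0 lower, against 18.0% and 15.8%, and with that library also left out 28 and 0, against 23.4% and 20.1%. Without that library and without the trend removed, Rpl13a, Rpl10, Rps26, Rplp0 and Rpl4 were among the 6 higher, by 0.13 to 0.34 on the log2 scale. Rpl22, an RNA-binding protein of the large subunit, was at 171, 185 and 174 CPM in wild-type and 149, 154 and 147 CPM in labelled knockout libraries. Those groups did not overlap, with a log2 difference of −0.23 (adjusted p = 0.248, and 0.00206 without that library, range 0.00206 to 0.668). Its difference was −0.07 once the trend with exon length was removed. Its paralog Rpl22l1 was at 7.00, 10.3 and 5.42 CPM in wild-type and 7.13, 8.43 and 7.79 CPM in labelled knockout libraries, which overlapped. Rpl10 was higher in labelled knockout cells by 0.19 (adjusted p = 0.303, and 0.00141 without that library, range 1.33e-05 to 0.469), with no overlap between the libraries given above. Rplp0 was at 946, 1031 and 977 CPM in wild-type and 1010, 1110 and 1165 CPM in labelled knockout libraries, which overlapped, with a log2 difference of 0.15 (adjusted p = 0.410).

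With PDGF-BB, 4 members were lower in labelled knockout than in wild-type cells and 0 higher, where 26.6% of all genes were lower and 10.6% higher. At an unadjusted p under 0.05 12 were lower and 0 higher, and edgeR called 2 lower and 0 higher, against 15.8% and 13.4% of all genes. The background was 15.1% lower and 13.6% higher with TMM-style scaling. The members' median was −0.23 with all libraries, against −0.14 for all genes, and −0.12 with TMM-style scaling, against −0.05. It was −0.03 with the trend with exon length removed, against −0.02. Without library 1 of wild-type with PDGF-BB it was 0.02, against −0.12. The sign of the members' median in this comparison therefore rested on that library. Relative to the all-gene median, members stood at −0.08 with all libraries and at 0.14 without library 1. Without it 5 members were lower and 5 higher, against 29.7% and 11.9% of all genes, and without library 3 of the same group 49 were lower, against 31.4%. Removal of the length trend gave 2 lower and 0 higher, against 15.7% and 15.8%, and 1 lower and 21 higher with library 1 also left out, against 15.4% and 17.0%. Libraries did not overlap for 10 members that were lower and 0 that were higher, where 35.9% and 13.6% of all genes did not.

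Rpl7l1 was lower in labelled knockout cells by −0.45 on the log2 scale (SE 0.09, adjusted p = 0.00252), or −0.32 without library 1, and this call held under all 20 alternatives. Rps10 was lower by −0.60 (adjusted p = 0.00778), and by −0.29 with pseudogene values added (adjusted p = 0.189, range 0.00458 to 0.189). That call was also lost with the length trend removed and library 1 left out. Rpl3 differed by −0.27 (adjusted p = 0.0457), with the call lost in 9 of the 12 fits that left out 1 library, those of every group except wild-type with PDGF-BB, and in 6 of the 8 other alternatives, with adjusted p from 0.00831 to 0.556 over all. Its value was −0.13 without library 1. Biogenesis genes were lower in labelled knockout cells for 21 of 32, or 28 without library 1, where 26.6% and 29.7% of all genes were lower. Mitochondrial ribosomal protein genes were lower for 29 of 77 and higher for 0, or 15 and 3 without library 1.

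For the interaction, the response in labelled knockout minus that in wild-type cells, 0 members were called higher and 0 lower by limma-trend, where 2.25% and 1.68% of all genes were. The background was 1.84% and 2.11% with TMM-style scaling. At an unadjusted p under 0.05, 0 were higher and 4 lower, and edgeR called 0, against 1.61% and 1.89% of all genes. The members' median was −0.26 with all libraries and 0.0011 without library 1 of wild-type with PDGF-BB. With the length trend removed 0 were higher and 1 lower, against 3.27% and 4.63% of all genes, and the same counts came with library 1 also left out, against 5.24% and 6.91%. Rpl7l1 had an interaction of −0.38 (SE 0.13, adjusted p = 0.133). Without library 1 it was −0.25 (adjusted p = 0.0426, range 0.0173 to 0.280), where 5.74% of all genes were called higher and 5.22% lower. Its smaller response in labelled knockout cells thus passed the threshold in some fits and not in that with all libraries.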

How the data were processed

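RNA levels were measured in 12 libraries, 3 in each of 4 groups taken from the sample titles. Per the submitters' processing notes, HISAT2 and HTSeq were used on mm10, with no versions given. The authors deposited a table named for FPKM whose columns each add up to 1000000 and hold no division by length, so the unit is CPM. Per the file headers it also gives exon length and gene type. Each value came out as a whole read count (tolerance 0.001), library totals were 14953807 to 21698488 reads, and 1 read was 0.0461 to 0.0669 CPM. P-values therefore rest on 3 libraries a group, not on depth.

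Genes with at least 1 CPM in at least 3 libraries (14202) were tested with limma-trend (limma 3.58.1, R 4.3.3). The scale was log2(CPM + 1), all 12 libraries entered 1 fit of group means, and the p-values had Benjamini-Hochberg adjustment over these genes. The pseudocount understates changes of low genes. Alternatives were a pseudocount of 0.1, no filter, TMM-style scaling, edgeR 4.0.16 quasi-likelihood on the recovered reads, a replicate block, removal of a loess trend with exon length, addition of pseudogene values to members, and leaving out each library. Procedures were tested on simulated data. Promoter sequences are from RefSeq (GRCm38.p6). Figures were drawn with matplotlib 3.10.9.

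Members named are the called ones with non-overlapping libraries and the largest changes (up to 12 each way per contrast), the stalk, Rpsa, paralogs with their parents and the extremes per kilobase. From each translation list up to 4 called genes could be named. Rps27a in labelled knockout cells, Rpl4, Rpl14, Rps2, Rpl27, Rpl30, Rpl5, Rpl37a and the members called only without library 1 of wild-type with PDGF-BB were named after their values were seen. The rule for members reads no values, but the gene family and the lists were chosen with earlier results of these data known. Some genes that these rules name are not reported here.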

Additional observations from a re-analysis of the deposited data

How the results depend on the processing

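Precision was limited by 3 libraries a group and by library 1 of wild-type with PDGF-BB. Levels of low members with copies or overlapping gene models (such as Rps10, Rpl13a, Rpl23a and Rpl24) are uncertain. Of 27 member calls, 27 were kept with a pseudocount of 0.1, 24 with TMM-style scaling, 23 with edgeR, 25 with the length trend removed, 23 with pseudogene values added, 12 without a filter and 24 without library 1 of wild-type with PDGF-BB. They fell to 13 and 14 without wild-type untreated library 1 and 3. None turned direction. Causes were not tested.

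The sample labels do not tell whether equal replicate numbers share an animal or a day. Deviations from the group mean correlated from −0.23 to 0.18 in same-numbered libraries (18 pairs, median −0.0089). In differently numbered ones they correlated from −0.34 to 0.35 (36 pairs, median 0.017). With 3 libraries a group, these values cannot decide whether the numbers pair the samples. With the replicate block, members called higher and lower were 16 and 0 for PDGF-BB in wild-type, 3 and 1 in labelled knockout, 0 and 0 between labels untreated, 0 and 3 with PDGF-BB, and 0 and 0 for the interaction.

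For PDGF-BB in wild-type, members higher numbered 9 without a filter, 42 with TMM-style scaling, 51 with edgeR, 46 with the length trend removed and 30 with the trend removed and library 1 left out, and lower members numbered 1 in each of the last 2. In labelled knockout, higher members numbered 1 without a filter, 7 with the trend removed and 30 with both, and lower members 0 without a filter, 0 with TMM-style scaling, 0 with edgeR and 2 with both. Between labels untreated, higher members numbered 1 with TMM-style scaling, 7 with the trend removed and 28 with both. With PDGF-BB, higher members numbered 21 with both, and lower members 2 without a filter, with TMM-style scaling, with edgeR and with the trend removed, and 1 with both, where the median was 0.10. For the interaction, lower members numbered 1 with the trend removed and 1 with both. Without a filter 82 members were tested. The shares of all genes were then 11.2% higher and 17.1% lower for PDGF-BB in wild-type, and 7.29% and 10.8% in labelled knockout. Between labels with PDGF-BB they were 4.64% and 9.92%. Summed levels were 16394 CPM in wild-type untreated with TMM-style scaling, and in labelled knockout with PDGF-BB 19812 CPM with TMM-style scaling, 19609 with pseudogene values and 19959 with the trend removed.

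Values that turned sign were, for PDGF-BB in wild-type with both settings, −0.072 for Rpl10 and −0.18 for Rpl37a. Between labels with PDGF-BB, Rpl10 was 0.049 with TMM-style scaling, 0.019 with edgeR, 0.15 with the trend removed and 0.24 with both. Rpl39 was 0.053 with TMM-style scaling, 0.15 with the trend removed and 0.37 with both. Rpl37 was 0.000356 with a pseudocount of 0.1, 0.11 with TMM-style scaling, 0.032 with edgeR, 0.22 with the trend removed and 0.41 with both. Rpl37a was 0.074 and 0.34, and Rpl41 0.064 and 0.31, with the trend removed and with both.

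Leaving out each library in turn gave 7 to 69 members higher and 0 to 3 lower for PDGF-BB in wild-type, 1 to 11 and 0 to 2 in labelled knockout, 0 to 6 and 0 to 1 between labels untreated, 0 to 5 and 2 to 49 with PDGF-BB, and 0 to 1 lower for the interaction. Medians were 0.059 to 0.53, 0.03 to 0.11, −0.02 to 0.08, −0.43 to 0.02 and −0.46 to 0.0011 in that order. Sums were 18368 to 25400 CPM in wild-type with PDGF-BB, 16967 to 18031 in wild-type untreated, 17746 to 18702 in labelled knockout untreated and 18559 to 18745 in labelled knockout with PDGF-BB. For PDGF-BB in wild-type, Rpl10 ran from −0.13 to 0.20 and Rpl37a from −0.25 to 0.46. Between labels with PDGF-BB, Rpl10 ran from −0.17 to 0.15, Rpl39 from −0.35 to 0.30, Rpl37 from −0.26 to 0.32, Rpl37a from −0.43 to 0.28 and Rpl41 from −0.41 to 0.24.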
